A study of Mus musculus with 16 samples.

Results

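Chrna4, Pnpla3, Thrsp and 1810008I18Rik were 4 of the 46078 genes counted in mouse liver, and all 4 were among the 15075 genes with enough reads to be tested. They were selected on their measured levels, as genes that were high in fed liver of mice on the control diet and low after fasting or on a high-fat diet, so their levels and fold changes in the 4 groups are given as a description without a test. The livers came from male C57BL6/J mice (the sample labels spell the strain C56B6/J) that started the diets at 8 weeks of age and stayed on them for 16 weeks. The diets were a control diet (CD) and a high-fat diet with 60% of calories from fat (HFD), and livers were taken from mice fed ad libitum or fasted for 16 h. This gave 4 groups of 4 liver samples, each called a liver here, named CD fed, CD fast, HFD fed and HFD fast. RNA was poly(A)-selected from whole liver, and each library is 1 sample in the labels. The labels do not say that samples of a group came from separate animals, so p values measure the spread between these samples.

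The libraries held 41364448 to 57583153 assigned read pairs. Hepatocyte genes dominated every library, with a summed level of 82400 to 142000 CPM for 8 hepatocyte markers. In whole liver, fewer cells of a type and less RNA per cell cannot be told apart. Levels are given as CPM, read counts scaled to the size of the library, with library sizes adjusted by edgeR's TMM method, with the mean ± SD over the 4 livers of a group. Fold changes are on the log2 scale and come from a single edgeR quasi-likelihood fit of all 16 libraries. Adjusted p values are Benjamini-Hochberg values from that fit over all 15075 genes, and a gene is called at an adjusted p under 0.05.

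The feeding state sets the balance between fat synthesis and fat use in the liver. After a meal, insulin and glucose raise the activity of the transcription factors SREBP-1c (encoded by Srebf1) and ChREBP (encoded by Mlxipl), which switch on the enzymes that turn carbohydrate into fatty acids. Thrsp encodes THRSP, also known as Spot 14, a small protein induced by thyroid hormone and carbohydrate and linked to lipogenesis. Pnpla3 encodes a patatin-like phospholipase domain protein of lipid droplets and is a well known target of SREBP-1c. Chrna4 encodes the alpha 4 subunit of the neuronal nicotinic acetylcholine receptor, which in brain assembles with the beta 2 subunit encoded by Chrnb2. 1810008I18Rik is annotated as a long intergenic non-coding RNA.

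Chrna4 (ENSMUSG00000027577) lies on chromosome 2 at 181018380 to 181043546 on the minus strand of GRCm38. Pnpla3 (ENSMUSG00000041653) lies on chromosome 15 at 84167837 to 84187236 on the plus strand. Both remaining genes are on chromosome 7, Thrsp (ENSMUSG00000035686) at 97412938 to 97417730 on the minus strand and 1810008I18Rik (ENSMUSG00000100094) at 65803111 to 65806449 on the plus strand. Coordinates and gene types are those of GENCODE for GRCm38. Of the words of 50 bases in their annotated transcripts, Chrna4 and 1810008I18Rik shared none with another gene, Thrsp shared 0.421% and Pnpla3 shared 5.14%. Pnpla3 shared no such word with Pnpla5, its closest relative on the same chromosome. The annotated transcript Gm49513 overlaps 2 Pnpla3 exons on the same strand, but it has no row in the count table.

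The promoters of Pnpla3 and its relative Pnpla5 are shown because both genes were high in the same group, and those of 1810008I18Rik because this RNA carries no name that gives a function. RefSeq promoter windows on GRCm38.p6 were found for 4 of 4 members. The sequences run 5′ to 3′ on the strand of the gene, are the bases before the RefSeq start that lie outside annotated exons of the gene, and carry motif matches in capitals. The motifs were searched on both strands. TCACNCCAC is a core of sterol response elements. CACGTG is the E-box and CCAAT the box bound by NF-Y. AGGTCA is bound by nuclear receptors and GTAAACA by forkhead factors. TATAAA is the TATA box and GGGCGG the GC box.
Pnpla3 (chr15:84167566-84167815, plus strand): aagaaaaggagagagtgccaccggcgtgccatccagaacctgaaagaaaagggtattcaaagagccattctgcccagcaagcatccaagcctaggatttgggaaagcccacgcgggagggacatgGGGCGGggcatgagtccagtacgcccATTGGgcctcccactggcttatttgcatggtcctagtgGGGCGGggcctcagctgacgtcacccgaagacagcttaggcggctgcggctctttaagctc
Pnpla5 (chr15:84123176-84123425, minus strand): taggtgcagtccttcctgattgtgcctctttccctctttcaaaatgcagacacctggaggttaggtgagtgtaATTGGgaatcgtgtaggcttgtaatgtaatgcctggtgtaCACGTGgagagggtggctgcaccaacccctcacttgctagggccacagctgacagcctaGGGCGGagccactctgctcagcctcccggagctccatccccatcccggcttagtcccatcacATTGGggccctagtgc
1810008I18Rik upstream start (chr7:65802787-65803036, plus strand): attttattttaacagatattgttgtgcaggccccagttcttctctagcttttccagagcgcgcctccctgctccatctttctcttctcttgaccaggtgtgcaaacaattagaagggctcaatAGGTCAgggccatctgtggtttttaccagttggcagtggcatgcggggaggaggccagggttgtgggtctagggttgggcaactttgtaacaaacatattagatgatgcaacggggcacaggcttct
1810008I18Rik internal start (chr7:65803783-65804025, plus strand): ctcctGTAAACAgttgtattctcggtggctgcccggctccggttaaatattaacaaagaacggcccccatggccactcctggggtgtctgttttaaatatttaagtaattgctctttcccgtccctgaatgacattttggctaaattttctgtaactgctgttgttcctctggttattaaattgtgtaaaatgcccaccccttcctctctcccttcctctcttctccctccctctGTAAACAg

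The Pnpla3 window held CCAAT on the opposite strand at -99 and GGGCGG at -125 and -61, counted back from the base before the start. The Pnpla5 window held CACGTG at -137, CCAAT on the opposite strand at -177 and -16, and GGGCGG at -78. Both windows thus held CCAAT and GGGCGG, which are common: 33.8% and 32.7% of the 32851 RefSeq windows of 250 bases hold them. CACGTG is in 6.02% of these windows. The upstream window of 1810008I18Rik held AGGTCA (14.0% of windows) at -127, and the window at its internal start held GTAAACA (3.17% of windows) at -245 and -15. Chrna4 had GGGCGG on the opposite strand at -173 and -51 and on the gene's strand at -89, in a window of 74.4% G and C against a median of 52.4%. The Chrna4 matches at -89 and -51 lie inside an annotated exon, as do 128 of the window's 250 bases. The start used, at 181039177, lies inside the annotated gene, whose 5′ end is at 181043546. Thrsp had CCAAT at -52 and, on the opposite strand, at -79, both inside a longer annotated first exon that is not printed. None of the printed matches overlapped another, and no member window held TCACNCCAC (1.05% of windows), CACGTG or TATAAA (12.4% of windows). A match describes the letters only.

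Chrna4 was a clearly measured transcript in fed liver on CD and close to undetectable after fasting. The 4 CD fed libraries held 1161, 1992, 1068 and 1767 reads (21.2, 36.9, 19.7 and 31.6 CPM, mean 27.3 ± 8.30). The CD fast libraries held 5, 0, 1 and 1 reads, a mean of 0.0398 ± 0.053 CPM, and the library without a read allows a level of up to 0.0767 CPM at a floor of 3 reads. No CD fast library came near a CD fed library.

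In HFD fed livers Chrna4 had 59, 28, 31 and 37 reads, a mean of 0.826 ± 0.287 CPM or 3.02% of the CD fed mean. HFD fast livers had 1, 8, 4 and 3 reads, a mean of 0.0869 ± 0.068 CPM. The order of the groups was CD fed, HFD fed, HFD fast and CD fast, and only the last pair overlapped. As a ratio of summed reads scaled to library size, CD fast livers held 0.144% of the CD fed level, with an exact 95% interval of 0.0577% to 0.296% that covers counting error only. This is a level 696-fold lower, with a counting interval of 338-fold to 1730-fold. The same ratio was 3.03% (2.56% to 3.55%) for HFD fed against CD fed and 10.3% (5.75% to 17.3%) for HFD fast against HFD fed.

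Pnpla3 also had its one high group in CD fed livers, with 780, 733, 756 and 370 reads (14.2, 13.6, 13.9 and 6.61 CPM, mean 12.1 ± 3.66). The CD fast libraries held 18, 13, 19 and 19 reads, a mean of 0.386 ± 0.0418 CPM, and the HFD fast libraries 17, 27, 18 and 15 reads, a mean of 0.415 ± 0.135 CPM. HFD fed livers had 44, 27, 38 and 65 reads, a mean of 0.919 ± 0.285 CPM. The lowest CD fed liver, replicate 4, still lay far above the highest liver of any other group, an HFD fed liver at 1.28 CPM. HFD fed livers lay above every CD fast liver but overlapped the HFD fast livers, whose highest library (0.612 CPM) passed the lowest HFD fed library (0.591 CPM). Relative to the CD fed mean, Pnpla3 was at 3.19% after fasting on CD, and on HFD at 7.60% when fed and 3.43% when fasted.

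Thrsp was the most abundant member in every group but CD fast, where 1810008I18Rik was higher (24.8 ± 2.15 CPM against 9.74 ± 5.67 CPM for Thrsp). The HFD livers lay well above the CD fast livers for Thrsp. CD fed livers had 183, 718, 783 and 371 CPM (mean 514 ± 285) and CD fast livers had 6.08, 5.99, 18 and 8.88 CPM (mean 9.74 ± 5.67). These groups did not overlap, although the CD fed livers spanned a 4.28-fold range. HFD fed livers kept 215, 149, 212 and 140 CPM (mean 179 ± 40.2), which overlapped the CD fed range through CD fed replicate 1. HFD fast livers had 49.0, 201, 45.0 and 33.7 CPM, a mean of 82.1 ± 79.3. HFD fast replicate 2 stood apart from its group and fell inside the HFD fed range. The other 3 HFD fast livers lay between the HFD fed and the CD fast libraries, and every HFD fast liver was above every CD fast liver.

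1810008I18Rik had the smallest difference with fasting on either diet and was not silenced in any group, so the description of these genes as silenced holds for Chrna4 and Pnpla3 better than for this RNA. CD fed livers had 118, 114, 88.2 and 100 CPM (mean 105 ± 13.5). After fasting on CD it had 27.7, 22.6, 23.9 and 25 CPM (mean 24.8 ± 2.15). On HFD it had 44.7, 33.1, 26.6 and 33.7 CPM when fed (mean 34.5 ± 7.51) and 23.8, 22.3, 24.9 and 23.5 CPM when fasted (mean 23.6 ± 1.10). Each library held at least 885 reads of it. The CD fed libraries lay above all others, HFD fed lay above HFD fast, and CD fast overlapped both HFD groups. The lowest group mean was 22.5% of the CD fed mean.

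**Figure D1:**
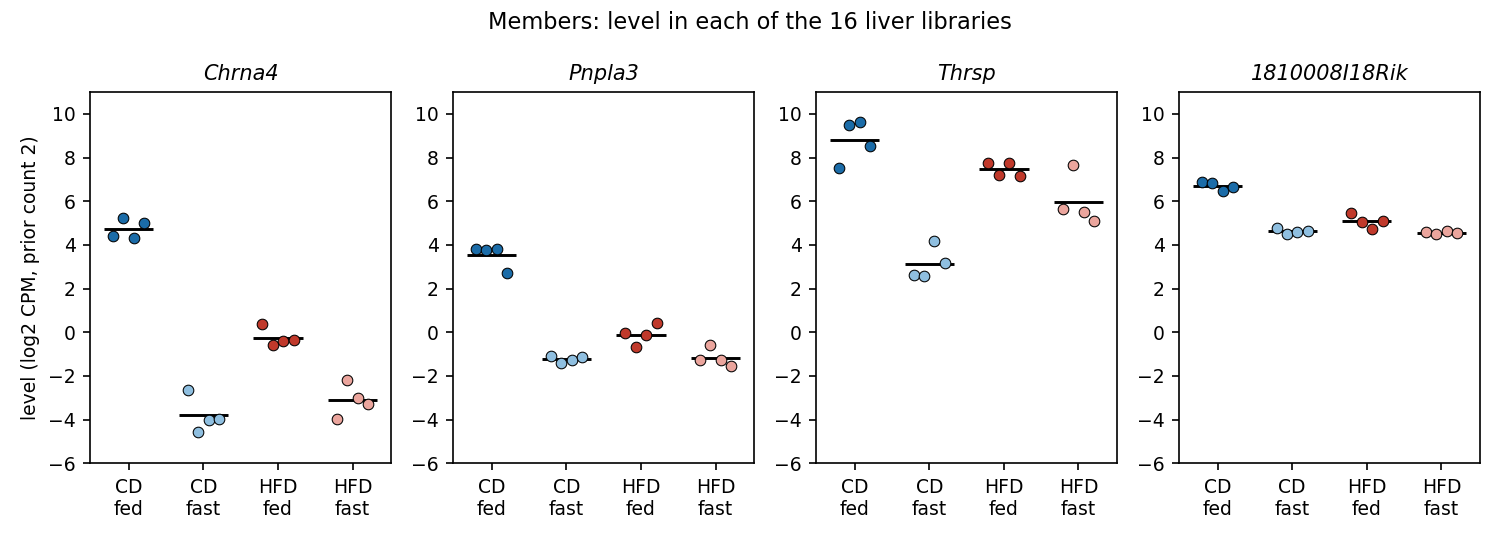
Level of Chrna4, Pnpla3, Thrsp and 1810008I18Rik in each of the 16 livers, as log2 CPM with a prior count of 2 (y axis) by group (x axis); points are livers and lines are group means, n = 4. The CD fed livers are the highest group for every gene, and HFD fast replicate 2 stands above the other 3 livers of its group for Thrsp.

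Compared per length, as CPM divided by the exon length in kilobases (RPKM), the 4 genes differed widely in CD fed liver. Thrsp had 235 ± 130 RPKM, 1810008I18Rik 42.6 ± 5.48, Pnpla3 7.81 ± 2.37 and Chrna4 5.44 ± 1.65. The last pair did not differ beyond their spread. With the length of the longest transcript in place of all exons, Thrsp came to 367 RPKM.

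The design asks how the livers answer fasting on each diet and how they answer HFD in each feeding state. After fasting on CD each member was lower, with log2 fold changes of -9.35 (SE 0.47) for Chrna4, -4.96 (SE 0.30) for Pnpla3, -5.72 (SE 0.67) for Thrsp and -2.08 (SE 0.13) for 1810008I18Rik. The libraries did not overlap for 4 of 4 members, where 12.3% of all genes tested were lower without overlap and 25.2% were called by edgeR in either direction. Of 10 lists of cell type markers, 3 had summed levels that did not overlap between these groups, those of neurons, endothelium and pancreas acinar cells. The summed level of 8 neuron markers (3 tested, 1 called) was 10.2 to 13.6 CPM in fed and 6.35 to 8.21 CPM in fasted livers. The summed level of 6 endothelial markers (3 called) was 228 to 258 CPM in fed and 164 to 217 CPM in fasted livers, and that of 6 macrophage markers (3 called) 193 to 310 and 121 to 200 CPM. Of 7 pancreas acinar markers Amy2a5 had no read and 2 were tested, both called, with sums of 14.4 to 23.5 and 6.19 to 12.2 CPM. Their part in the members' differences was not tested. The Chrna4 value rests on 7 reads in CD fast and depends on the prior count, being -8.40 with a prior count of 2 and -10.63 without CD fast replicate 1, which held 5 of those reads.

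HFD in fed mice gave -5.04 (SE 0.33) for Chrna4, -3.71 (SE 0.27) for Pnpla3, -1.52 (SE 0.56) for Thrsp and -1.60 (SE 0.13) for 1810008I18Rik. The libraries did not overlap for 3 of 4 members, Thrsp being the exception. In this comparison 8.51% of all genes were lower without overlap and 7.50% were called. This comparison shares the CD fed livers with the preceding one. Of the marker lists only the adipocyte sum did not overlap, at 15.1 to 16.6 CPM in CD fed and 19.7 to 26.1 CPM in HFD fed livers, with 0 of 3 tested genes called. HFD fed replicate 4 stood apart in single markers of other cell types. It held 529 reads of Krt19 (18 to 45 in the other 15 libraries) and 76 of Ctrb1 (0 to 8). Its Col1a1 level of 21.1 CPM was high for its group (2.18 to 3.45 in the rest), but HFD fast replicate 4 had 24.4 CPM. The cholangiocyte, acinar and stellate sums overlapped between HFD fed and CD fed livers. Without HFD fed replicate 4 the differences were -4.99 for Chrna4, -3.92 for Pnpla3, -1.42 for Thrsp and -1.59 for 1810008I18Rik.

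Fasting on HFD gave smaller differences. They were -3.23 (SE 0.49) for Chrna4, -1.15 (SE 0.30) for Pnpla3, -1.12 (SE 0.55) for Thrsp and -0.55 (SE 0.13) for 1810008I18Rik. Chrna4 and 1810008I18Rik had groups that did not overlap, where 8.66% of all genes were lower without overlap and 8.86% were called. Without HFD fast replicate 2 the Thrsp difference was -2.08, so this 1 library decides the size of the value. The Chrna4 difference was -3.84 without the same library, and ran from -3.84 to -2.93 with 1 library left out. The sums of 3 marker lists did not overlap in this comparison either. Hepatocyte markers (1 of 8 called) were at 118000 to 142000 CPM in fed and 82400 to 116000 CPM in fasted livers, acinar markers (1 of 2 tested called) at 10.8 to 19.2 and 6.3 to 9.2 CPM, and lymphocyte markers (0 of 7 called) at 2.13 to 3.46 and 3.49 to 5.37 CPM. The adipocyte sum overlapped, at 19.7 to 26.1 CPM in fed and 19.6 to 83.9 CPM in fasted livers, but 2 of 3 tested genes were called, 1 in each direction. The erythroid sum overlapped too, with 1 of 5 called. The part of all these markers in the members' differences was not tested.

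HFD in fasted mice separated only Thrsp, which was 3.07 (SE 0.60) higher on the log2 scale in HFD fast than in CD fast livers, in a comparison in which 6.55% of all genes were higher without overlap and 7.70% were called. Its value was 2.12 without HFD fast replicate 2. Of the marker lists the stellate sum alone did not overlap, at 120 to 197 CPM in CD fast and 210 to 313 CPM in HFD fast livers (1 of 6 called). The endothelial sum overlapped, at 164 to 217 and 202 to 267 CPM, but 3 of its 6 markers were called, all higher in HFD fast livers. Their part in the Thrsp value was not tested. The other 3 members overlapped, at 1.07 (SE 0.85) for Chrna4, 0.09 (SE 0.33) for Pnpla3 and -0.07 (SE 0.13) for 1810008I18Rik. The Chrna4 value was 2.35 without CD fast replicate 1 and 0.48 without HFD fast replicate 2. The fasting response of each member was smaller on HFD than on CD, by 6.12 (SE 0.96) for Chrna4, 3.80 (SE 0.42) for Pnpla3, 4.59 (SE 0.81) for Thrsp and 1.53 (SE 0.18) for 1810008I18Rik. With 1 library left out the Chrna4 value ran from 5.51 to 7.39, the highest without CD fast replicate 1, and the Thrsp value from 3.63, without HFD fast replicate 2, to 5.06. This diet by fasting interaction called 2.59% of all genes, and nothing is read from these values beyond the choice of the members.

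**Figure D2:**
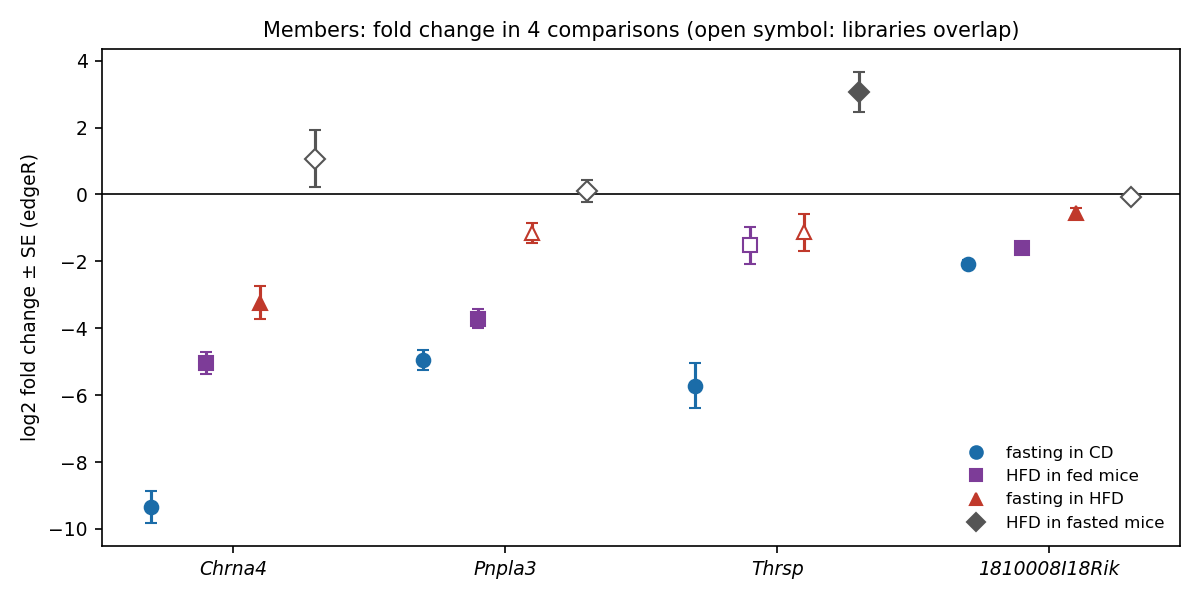
Log2 fold change of each member in 4 comparisons (y axis, edgeR, bars are SE); filled symbols mark groups whose livers do not overlap and open symbols groups that overlap. The largest value is -9.35 for Chrna4 with fasting on CD, and Thrsp alone is clearly above 0 for HFD in fasted mice, at 3.07.

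The nicotinic receptor list held 24 genes other than Chrna4: subunits, chaperones, Ly6-type modulators and enzymes of acetylcholine turnover. Only 8 of them had enough reads to be tested. With fasting on CD, 2 rose and 1 fell (37.5% against 25.2% of all genes), with a list median of 0.45, and with HFD in fed mice 2 rose and none fell (25% against 7.50%), with a median of 0.27. The alpha 2 subunit gene Chrna2 was lowest in the livers in which Chrna4 was highest. It had 319 to 416 reads in CD fed livers and 1123 to 1684 in CD fast livers. It rose by 2.27 (SE 0.22) on the log2 scale with fasting on CD (adjusted p = 1.22e-05), by 0.88 (SE 0.22) with fasting on HFD (adjusted p = 0.0209) and by 1.01 (SE 0.22) with HFD in fed mice (adjusted p = 0.0123).

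Chrnb2, the usual partner of Chrna4, had 86 to 180 reads in a library. Its level on CD was 1.83 ± 0.165 CPM in fed and 2.36 ± 0.351 CPM in fasted livers, and on HFD 3.03 ± 0.567 and 2.16 ± 0.333 CPM. It did not pass the test with fasting on CD, at 0.37 (SE 0.16, adjusted p = 0.103), although the libraries did not overlap, nor with fasting on HFD, at -0.49 (SE 0.16, adjusted p = 0.068). It rose by 0.73 (SE 0.16) with HFD in fed mice (adjusted p = 0.013). Bche, which encodes butyrylcholinesterase, rose by 0.79 (SE 0.14) with fasting on CD (adjusted p = 0.00123) and Ly6e, a Ly6-type membrane protein gene, fell by 0.91 (SE 0.17) (adjusted p = 0.00162). The fasting response differed between diets for Chrna2 (-1.39, SE 0.30, adjusted p = 0.0287) and Ly6e (1.01, SE 0.24, adjusted p = 0.0398). These interaction calls were lost in 6 and 11 of 24 alternatives, and that of Chrna2 with fasting on HFD in 4 of 25.

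Because Chrna4 is best known from neurons, neuron markers were read beside it. Of 8 markers 7 had a read, but Snap25 had none in any library and Nefl had 1 read in all. Syt1, with 209 to 647 reads in a library, made up most of the summed level. That sum ran from 10.2 to 13.6 CPM in CD fed livers and from 6.35 to 8.21 CPM after fasting. On HFD it ran from 10.9 to 15.3 CPM in fed and from 7.21 to 10.9 CPM in fasted livers. The sum was lower in fasted livers on CD, as Chrna4 was. On HFD the fed and fasted sums overlapped, with 0 of 3 tested genes called, while Chrna4 did not overlap. The sum was as high in HFD fed as in CD fed livers, between which Chrna4 differed 33-fold. The part of neuron RNA in the Chrna4 levels was not tested.

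Pnpla5, a paralogue near Pnpla3, was high in CD fed livers alone. It had 99, 81, 83 and 104 reads there, a mean of 1.67 ± 0.183 CPM, and 0 to 2 reads in each of the other 12 libraries. It passed the filter on low counts through its CD fed reads alone, so its contrasts with CD fed had to differ and are given as ratios with no test. From summed reads, CD fast livers held 0.670% (exact 95% interval 0.0808% to 2.44%) and HFD fed livers 0.637% (0.0769% to 2.32%) of the CD fed level.

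Most other genes of the patatin-like family and their lipid droplet partners rose with fasting on CD. Of 16 tested, Pnpla5 left out, 10 rose and 1 fell with fasting on CD (68.8% against 25.2% of all genes; median 0.90), and 4 rose and 0 fell with HFD in fed mice (25% against 7.50%; median 0.20). Counted with Pnpla5, the calls with HFD in fed mice were 5 and became 3 without CD fed replicate 1, 2 or 4 or HFD fed replicate 3 or 4. The Pnpla5 call, fixed by the filter, was kept in 25 of 25 alternatives, so the calls lost were those of other genes. Pnpla2, the gene of adipose triglyceride lipase, had 75.1 ± 8.50 CPM in fed and 171 ± 73.8 CPM in fasted livers on CD. It rose by 1.19 (SE 0.23, adjusted p = 0.00198) with fasting on CD and by 0.88 (SE 0.23, adjusted p = 0.0308) with HFD in fed mice, the latter call being lost in 7 of 25 alternatives.

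Plin4, a lipid droplet coat gene, rose by 2.27 (SE 0.21, adjusted p = 7.65e-06) with fasting on CD, by 1.97 (SE 0.21, adjusted p = 0.000142) with HFD in fed mice, by 1.23 (SE 0.20, adjusted p = 0.00263) with fasting on HFD and by 0.93 (SE 0.20, adjusted p = 0.0144) with HFD in fasted mice. Mgll, which encodes monoglyceride lipase, rose by 1.38 (SE 0.16) with fasting on CD (adjusted p = 4.85e-05). Plin5, another coat gene, rose by 1.32 (SE 0.24) with HFD in fed mice (adjusted p = 0.00456). With fasting on HFD, the coat gene Plin2 rose by 0.86 (SE 0.21, adjusted p = 0.020) and Pnpla6 fell by 0.32 (SE 0.08, adjusted p = 0.0202). The fasting response differed between diets for Plin5 (-1.5, SE 0.33, adjusted p = 0.0292) and Pnpla2 (-1.39, SE 0.33, adjusted p = 0.0369). These calls of Plin2, Pnpla6, Plin5 and Pnpla2 were lost in 5 of 25, 3 of 25, 6 of 24 and 11 of 24 alternatives.

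**Figure D3:**
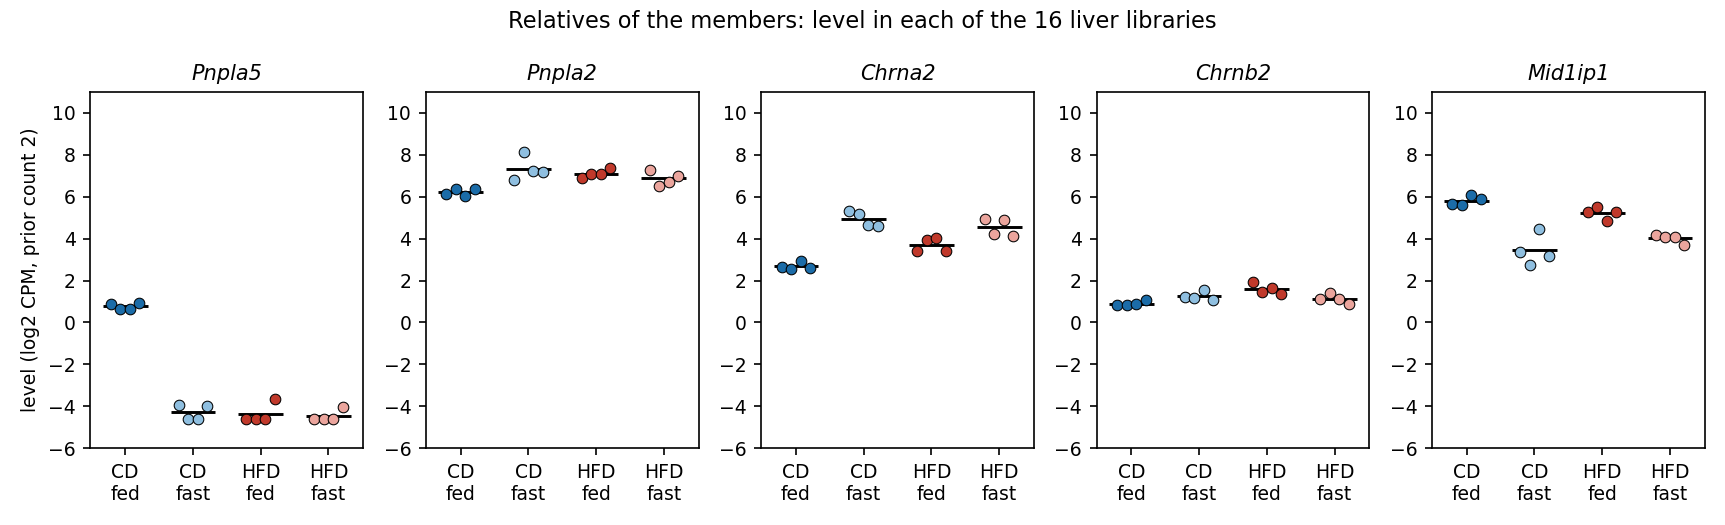
Level of Pnpla5, Pnpla2, Chrna2, Chrnb2 and Mid1ip1 in each of the 16 livers, as log2 CPM with a prior count of 2 (y axis) by group (x axis); points are livers and lines are group means, n = 4. Pnpla5 is high in CD fed livers alone, Chrna2 is lowest there, and the 4 HFD fed livers of Mid1ip1 lie below the CD fed livers.

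Mid1ip1, which encodes the partner and relative of THRSP, had 56.2 ± 8.19 CPM in fed and 11.9 ± 6.62 CPM in fasted livers on CD. On HFD it had 38.0 ± 6.88 CPM when fed and 16.2 ± 2.28 CPM when fasted. It fell by 2.23 (SE 0.27) with fasting on CD (adjusted p = 5.83e-05) and by 1.23 (SE 0.27) with fasting on HFD (adjusted p = 0.0119). With HFD in fed mice its difference was -0.56 (SE 0.26) and was not called (adjusted p = 0.208). Its HFD fed livers, at 28.9 to 45.6 CPM, all lay below its CD fed livers, at 48.9 to 66.7 CPM.

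Thrsp takes its name from its response to thyroid hormone, so the receptors, deiodinases and other responsive genes were counted. Of 11 genes 8 were tested, of which 2 rose and 1 fell with fasting on CD (37.5% against 25.2%; median 0.12). The transthyretin gene Ttr fell by 0.92 (SE 0.20, adjusted p = 0.00436), the receptor gene Thra rose by 0.55 (SE 0.14, adjusted p = 0.0115) and the responsive gene Hr rose by 1.42 (SE 0.49, adjusted p = 0.0454), a call lost in 11 of 25 alternatives. With HFD in fed mice edgeR called 0 of 8, with 1 at an unadjusted p under 0.05, limma-voom 0 and DESeq2 1. Thrb, the main receptor gene of liver, had 42.3 ± 8.65 CPM when fed and 38.4 ± 9.26 CPM when fasted on CD. On HFD it had 42.6 ± 6.75 and 38.4 ± 6.43 CPM, and its groups overlapped in all 4 comparisons.

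Thrsp is also high in fat tissue, so adipocyte markers were read in the same libraries. Their summed level ran from 15.1 to 16.6 CPM in fed and from 14.6 to 23.2 CPM in fasted livers on CD. On HFD it ran from 19.7 to 26.1 CPM when fed and from 19.6 to 83.9 CPM when fasted. Of 3 adipocyte markers tested, 2 were called with fasting on HFD, 1 in each direction. HFD fast replicate 2, in which Thrsp stood apart, held 3095 reads of Cfd but 3 of Adipoq and 0 of Plin1. The most Adipoq reads, 45, were in HFD fast replicate 1, where Thrsp was 49.0 CPM. The part of these reads in the Thrsp levels was not tested.

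The lipogenic enzymes and transporters, 16 genes all tested, mostly fell with fasting on CD and with HFD in fed mice. With fasting on CD 13 fell and none rose (81.2% against 25.2% of all genes), with a median of -1.98 against -0.01 over all genes. With HFD in fed mice 10 fell and none rose (62.5% against 7.50%), with a median of -0.91 against 0.01, and without CD fed replicate 2 this count was 6. With fasting on HFD 8 fell and none rose (50% against 8.86%; median -0.81), and without HFD fed replicate 1 or HFD fed replicate 2 this count was 5. With HFD in fasted mice 2 of 16 were called, 1 in each direction (12.5% against 7.70%; median -0.02). Neither call held once replicate 2 or 3 of the HFD fast group, or replicate 1, 2 or 4 of the CD fast group, was left out. The interaction called 5 genes, all with a smaller fall on HFD (31.2% against 2.59%).

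Fasn, which encodes fatty acid synthase, had 1130 ± 317 CPM in fed and 104 ± 14.7 CPM in fasted livers on CD. It fell by 3.44 (SE 0.20, adjusted p = 1.2e-07) with fasting on CD, by 1.47 (SE 0.19, adjusted p = 0.000444) with fasting on HFD and by 1.54 (SE 0.19, adjusted p = 0.00031) with HFD in fed mice. Acly, the gene of ATP citrate lyase, fell by 2.47 (SE 0.20, adjusted p = 2.12e-06), 0.98 (SE 0.19, adjusted p = 0.00667) and 1.77 (SE 0.19, adjusted p = 0.000187) in the same comparisons. Acaca, the gene of acetyl-CoA carboxylase 1, fell by 2.02 (SE 0.12, adjusted p = 1.28e-07), 1.03 (SE 0.12, adjusted p = 0.000302) and 1.0 (SE 0.12, adjusted p = 0.00031).

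Acss2, which encodes the cytosolic acetyl-CoA synthetase, fell by 2.21 (SE 0.25) with HFD in fed mice (adjusted p = 0.000238). The fasting response differed between diets for Fasn (1.97, SE 0.26, adjusted p = 0.00287), Acaca (0.99, SE 0.17, adjusted p = 0.0114) and Acss2 (1.98, SE 0.34, adjusted p = 0.0122). Elovl6, a fatty acid elongase gene, fell by 0.90 (SE 0.25, adjusted p = 0.0377) with HFD in fasted mice, a call lost in 9 of 25 alternatives. The other lipogenic gene called in that comparison rose and is not named here.

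Of 17 regulators of lipogenic transcription tested, 2 rose and 3 fell with fasting on CD (29.4% against 25.2% of all genes, median -0.01). With fasting on HFD 1 rose and 3 fell (23.5% against 8.86%, median -0.07), and with HFD in fed mice 2 fell (11.8% against 7.50%, median 0.01). The 4 calls with fasting on HFD became 1 without HFD fed replicate 1, and 2 without HFD fed replicate 2, HFD fast replicate 1 or HFD fast replicate 4. Srebf1 had 175 ± 9.31 CPM when fed and 48.6 ± 18.3 CPM when fasted on CD. On HFD it had 235 ± 37.7 and 112 ± 22.2 CPM. It fell by 1.85 (SE 0.21, adjusted p = 2.79e-05) with fasting on CD and by 1.06 (SE 0.20, adjusted p = 0.00624) with fasting on HFD, and was 1.20 (SE 0.20, adjusted p = 0.00512) higher with HFD in fasted mice. In fed mice its difference with HFD was 0.42 (SE 0.20) and was not called (adjusted p = 0.222), with every HFD fed liver above every CD fed liver. In the same livers Chrna4 was at 3.02%, Pnpla3 at 7.60%, Thrsp at 34.8% and 1810008I18Rik at 32.9% of their CD fed means.

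Mlxipl fell by 0.99 (SE 0.14, adjusted p = 0.000176) with fasting on CD and by 0.48 (SE 0.14, adjusted p = 0.0424) with fasting on HFD, the latter call being lost in 11 of 25 alternatives. Insig1, which encodes an inhibitor of SREBP processing and is itself an SREBP target, fell by 2.08 (SE 0.23, adjusted p = 2.69e-05) with fasting on CD and by 1.19 (SE 0.23, adjusted p = 0.0058) with HFD in fed mice, with an interaction of 1.51 (SE 0.32, adjusted p = 0.0241). Scap, the gene of the SREBP escort protein, fell by 0.60 (SE 0.13, adjusted p = 0.0119) with HFD in fed mice. With fasting on HFD, Pparg rose by 0.95 (SE 0.22, adjusted p = 0.0156) and Usf2 fell by 0.35 (SE 0.10, adjusted p = 0.0396), and with HFD in fasted mice the LXR beta gene Nr1h2 fell by 0.34 (SE 0.10, adjusted p = 0.0415). The calls of Pparg, Usf2 and Nr1h2 were lost in 1, 8 and 12 of 25 alternatives, that of the Insig1 interaction in 2 of 24 and that of Srebf1 with HFD in fasted mice in 1 of 25.

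**Figure D4:**
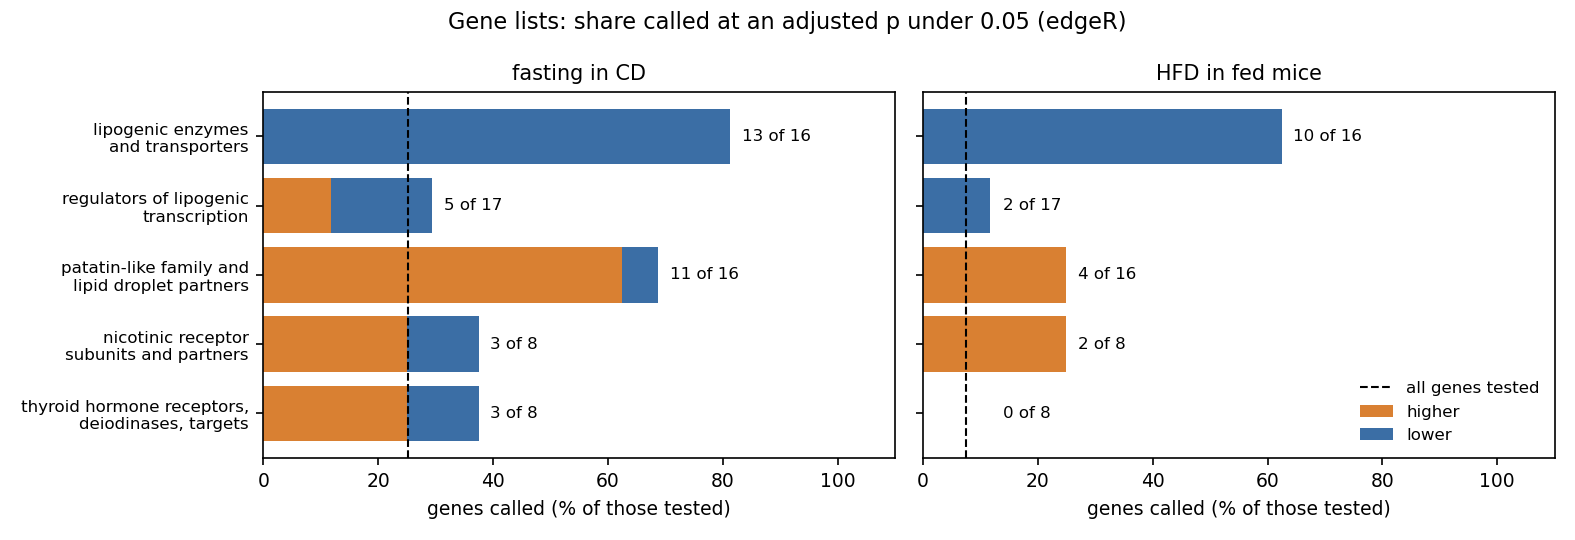
Share of each gene list called higher (orange) or lower (blue) at an adjusted p under 0.05, as a percent of its genes tested with Pnpla5 left out (x axis), in the fasting comparison on CD and the diet comparison in fed mice; the dashed line is the share over all genes tested, 25.2% and 7.50%. The lipogenic enzymes stand at 13 of 16 and 10 of 16, all lower, while the regulators stand near the line.

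Genes next to the members were examined to see whether the differences were shared along the chromosome. The 3 nearest genes with reads on each side gave 24 neighbours, of which 16 passed the filter, and 15 are counted here with Pnpla5 left out. With fasting on CD 1 rose and 2 fell, 3 of 15 against 25.2% of all genes. With fasting on HFD 1 of 15 fell, against 8.86% of all genes. With HFD 1 of 15 fell in fed mice, against 7.50%, and 2 of 15 in fasted mice, against 7.70%.

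Pnpla5, which lies 44662 bases from Pnpla3 and is read in the opposite direction, is the neighbour left out, since it passed the filter through the CD fed group alone. Samm50, 5005 bases above Pnpla3, had 96.6 ± 7.65 CPM in fed and 120 ± 22.7 CPM in fasted livers on CD (0.32, SE 0.11, adjusted p = 0.0509), and fell by 0.62 (SE 0.11, adjusted p = 0.00683) with HFD in fasted mice, a call lost in 1 of 25 alternatives. Mir6392, which lies inside a Pnpla3 intron, had 32 reads in all and was not tested. Parvb, the next gene beyond Samm50, fell by 0.54 (adjusted p = 0.0464) with fasting on CD, a call lost in 17 of 25 alternatives.

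Col20a1 ends 17 bases from the 3′ end of Chrna4 on the opposite strand and did not pass the test with fasting on CD, at -0.43 (adjusted p = 0.176). Whether counting used the strand is not given in the sources used here, and reads crossing that boundary cannot be told apart. Eef1a2, on the other side of Chrna4, was not tested. Ptk6, 150175 bases from Chrna4, fell by 2.0 (SE 0.40, adjusted p = 0.00219) with fasting on CD and fell by 1.91 (SE 0.39, adjusted p = 0.0091) with HFD in fed mice, and its fasting response differed between diets by 2.90 (adjusted p = 0.0173). Arfgap1 rose by 0.24 (adjusted p = 0.0238) with fasting on CD, a call lost in 6 of 25 alternatives.

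Ndufc2, 5136 bases from Thrsp, had 37.3 ± 1.61 CPM in fed and 42.3 ± 5.50 CPM in fasted livers on CD (0.18, adjusted p = 0.104). It fell by 0.28 with HFD in fasted mice (adjusted p = 0.0439), a call lost in 18 of 25 alternatives. Kctd14, on the other side of Thrsp, was not tested. Beside 1810008I18Rik, Gm7551 was not tested and Gm20684 stayed uncalled, at 0.12 (adjusted p = 0.71) with fasting on CD. Tm2d3, 101198 bases away, fell by 0.32 with fasting on HFD (adjusted p = 0.0293), a call lost in 8 of 25 alternatives.

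**Figure D5:**
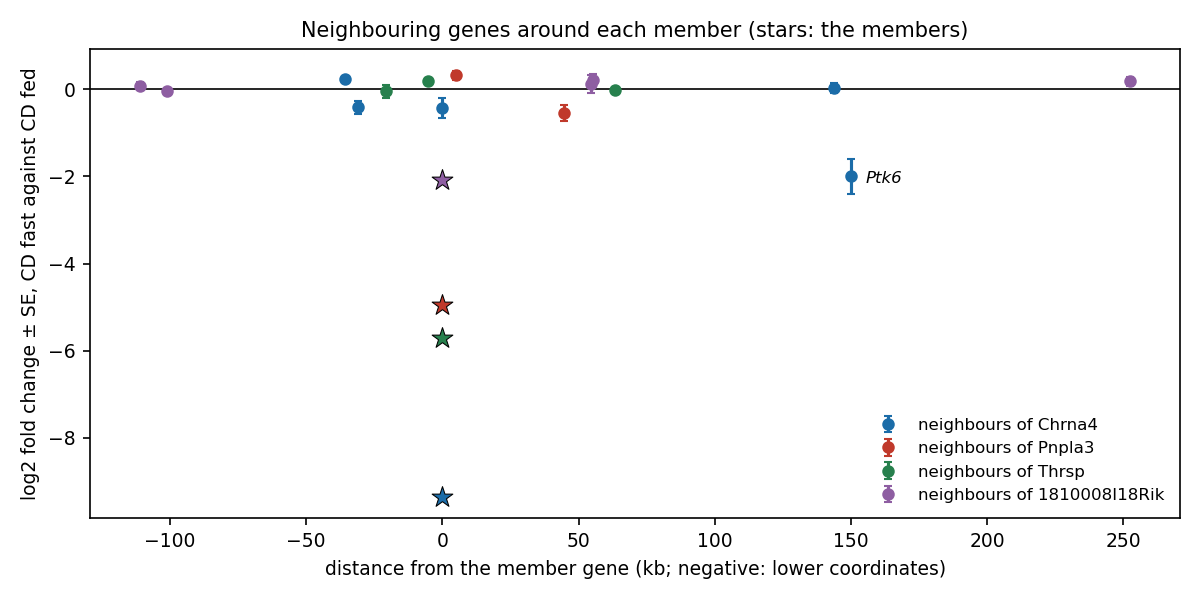
Log2 fold change with fasting on CD (y axis, edgeR, bars are SE) of 15 tested neighbours, Pnpla5 left out, against their distance from the member gene in kilobases (x axis); stars are the members at 0. Most neighbours lie near 0, and Ptk6 at -2.0 is the lowest.

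The genes whose levels were most like each member over the 16 libraries were found by Pearson's r of log2 CPM. These values are a description over libraries that share their groups. For Chrna4 they were Cyb5r3 (r = 0.977), Papss1 (0.970), Acaca (0.964), Fasn (0.962) and Rdh11 (0.962). For Pnpla3 they were Copz1 (0.964), Pnpla5 (0.953), Acly (0.953), Rdh11 (0.952) and Sc5d (0.950). For 1810008I18Rik they were Rdh11 (0.965), Sc5d (0.956), Copz1 (0.956), Acly (0.955) and Pnpla5 (0.951), the same 5 genes as for Pnpla3. This holds for Pearson's r, since by Spearman's rho the leading 5 genes of Pnpla3 and 1810008I18Rik had none in common and Pnpla5 had a rho of 0.653 and 0.719 with them. Pnpla5 passed the filter through CD fed alone, so its r with members chosen as high there had to be high. By rho the leading 5 genes of Chrna4 were Alas2, Ropn1l, Man2a2, Krtcap2 and Pygl, none of them among its 5 by r. An r over 0.9 was reached by 73 genes with Chrna4, 35 with Pnpla3, 19 with Thrsp and 39 with 1810008I18Rik. The genes most like Thrsp by r were Gbe1 (0.947), Ces2g (0.938), Gsta3 (0.938), Cyb5b (0.933) and Nat8f1 (0.926), none of which is on another member's list. Rdh11, on 3 of the 4 lists, had 105 ± 15.9 CPM when fed and 17.3 ± 3.81 CPM when fasted on CD, and 30.1 ± 4.98 and 16.1 ± 5.66 CPM on HFD. Gbe1, the glycogen branching enzyme gene at the head of the Thrsp list, had 141 ± 23.6 and 62.4 ± 15.2 CPM on CD and 120 ± 15.5 and 81.9 ± 20.1 CPM on HFD. Among the members, r of Chrna4 was 0.963 with Pnpla3, 0.832 with Thrsp and 0.963 with 1810008I18Rik. It was 0.756 for Pnpla3 and Thrsp, 0.969 for Pnpla3 and 1810008I18Rik and 0.698 for Thrsp and 1810008I18Rik. The members were chosen for a shared pattern of these same levels, so high values among them follow from the choice.

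To see whether livers of the same group with more of one member also had more of another, each group's mean was subtracted and the deviations of the 16 livers were correlated. Over 10 relations (6 pairs of members and each member with the mean of the lipogenic list) none passed a two-sided exact permutation test within groups, the lowest adjusted p being 0.291 for Pearson's r and 0.252 for Spearman's rho. The strongest was Thrsp with the lipogenic mean (Pearson's r = 0.597, exact permutation p = 0.0553, adjusted 0.291; Spearman's rho = 0.662, exact permutation p = 0.0252, adjusted 0.252), and 12 of 16 livers deviated in the same direction. Without the 2 livers farthest from the median, r was 0.639 (exact permutation p = 0.129). Chrna4 and Pnpla3, whose group means moved together, had r = 0.276 (exact permutation p = 0.279) within groups, which was -0.092 over the 8 fed livers alone and -0.03 without the 2 livers farthest from the median. Chrna4 had 0 to 5 reads in CD fast and 1 to 8 in HFD fast libraries. Its deviations of 1.16 and -0.78 in CD fast replicates 1 and 2 rest on 5 and 0 reads. Counting error is large there, so the fasted livers cannot show whether Chrna4 varied with another gene.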

How the data were processed

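Poly(A) RNA of 16 mouse liver samples was sequenced in 4 groups of 4 (CD fed, CD fast, HFD fed, HFD fast). The deposited values are raw counts per gene made by the authors, without normalization. The submitters' processing notes name CASAVA 1.8.4, TopHat2 2.0.11, featureCounts and the mm10 (GRCm38) build, and the strand setting of the counting is not given in the sources used here. The authors' annotation release is not given either, and symbols were matched for 45143 of 46078 gene IDs. The 4 member genes and the gene lists were chosen with earlier results of these data known.

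Counts were filtered with filterByExpr, scaled by TMM and fitted with edgeR 4.0.16 in R 4.3.3 (quasi-likelihood, group means, 12 residual degrees of freedom, Benjamini-Hochberg over 15075 genes, threshold 0.05). The SE is the log2 fold change divided by the square root of the F statistic. Log2 CPM had a prior count of 2. The common coefficient of variation was 19.2%. The fit was tested on simulated data. Replicates differed by more than sampling noise in all 24 pairs (chi-square per gene at least 37.6). Exact intervals (Clopper-Pearson, 95%) and the floor of 3 counts cover counting error only and leave out the spread between livers. PCR copies are not told apart, so the counting error itself may be larger.

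The members' contrasts were not tested, because the members had been selected on these levels. Relatives, lists and neighbours were tested in the same fit. Named genes were the members, Mid1ip1, Srebf1, Mlxipl, Fasn, Pnpla2, Pnpla5, Chrnb2 and Thrb, up to 3 called genes with the smallest p per list and comparison, the gene on each side of a member and the 5 genes most like each member. Further neighbours that were called, and marker genes, were named after their values were seen. 1 gene that this rule names is not reported here. Pnpla5 was left out of the counts of lists and neighbours after its values were seen. Lengths and neighbours came from GENCODE M21 and promoters from RefSeq on GRCm38.p6. Alternatives were other scalings and filters, DESeq2 1.42.0, limma-voom (limma 3.58.1), fits of 2 groups, a replicate block, other prior counts and leaving out each library. Correlations within groups used all arrangements (331776) of the livers.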

Additional observations from a re-analysis of the deposited data

Results flagged for a closer look

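Among 116 group levels of 29 genes, 9 had 1 library far from the other 3, where chance gives about 1 in 20. Among the members these were Pnpla3 in CD fed replicate 4, low at 6.61 CPM, and Thrsp in HFD fast replicate 2, high at 201.0 CPM. Pnpla5 was high at 0.0395 CPM in HFD fed replicate 4 and at 0.0202 CPM in HFD fast replicate 4, which are single libraries with reads in groups otherwise at 0. Any read among zeros counts as far, so these Pnpla5 levels cannot be set against the chance rate. In HFD fed livers, Srebf1 reached 291.0 CPM in replicate 1 and Plin2 reached 784.0 CPM in replicate 3. In CD fast livers, Thrb was low at 24.6 CPM in replicate 1, Elovl6 was high at 73.0 CPM in replicate 2 and Pklr was high at 97.8 CPM in replicate 3.

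The fasting response differed between diets by the interaction test (edgeR, adjusted p under 0.05) for 11 of the genes named. As the log2 response on HFD minus that on CD, it was 0.99 for Acaca, 1.49 for Acly, 1.98 for Acss2, 1.97 for Fasn, 1.65 for Pklr, 1.51 for Insig1, 1.01 for Ly6e and 2.90 for Ptk6. It was -1.39 for Chrna2, -1.5 for Plin5 and -1.39 for Pnpla2.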

How the results depend on the processing

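The members' fold changes moved by less than their spread in 508 of 515 alternatives, and the other 7 are given here. Chrna4 with fasting on CD was -8.40 with a prior count of 2 and -10.63 to -9.01 with 1 library left out. Leaving out CD fast replicate 1 took its value with HFD in fasted mice to 2.35 (range 0.48 to 2.35) and its interaction to 7.39 (range 5.51 to 7.39). Leaving out HFD fast replicate 2 took Thrsp with fasting on HFD to -2.08 (range -2.08 to -0.86) and its interaction to 3.63 (range 3.63 to 5.06). With HFD in fasted mice the sign changed for 1810008I18Rik, to 0.09 with scaling by total counts, and for Pnpla3, to -0.15 without HFD fast replicate 2. Thrsp came to 367 RPKM by its longest transcript. The correlation of Chrna4 and Pnpla3 within groups was -0.092 in fed livers and -0.03 without the 2 farthest libraries.

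Counts of called genes depended on the tool and the samples. HFD in fasted mice called 2101 genes with total counts, 1967 with DESeq2, 90 in a fit of the 2 groups alone and 535 to 1354 with 1 library left out. HFD in fed mice called 1768 with DESeq2 and 514 to 1268 with 1 library left out. The interaction called 1079 with DESeq2 and 147 to 461 with 1 library left out, and fasting on HFD 505 to 1533. With 1 library left out, the lipogenic genes called ran from 6 to 11 with HFD in fed mice and from 5 to 8 with fasting on HFD and from 0 to 2 with HFD in fasted mice, the regulators from 1 to 4 with fasting on HFD, and with HFD in fed mice the patatin list, Pnpla5 included, from 3 to 6 and the thyroid list from 0 to 1. Over all alternatives the highest counts were 12, 9, 2, 4, 7 and 1. Each of these patatin counts holds the Pnpla5 call, which the filter fixed and which was kept in 25 of 25 alternatives. The lipogenic count with HFD in fasted mice was 1 with upper quartile scaling, limma-voom, a replicate block and a fit of the 2 groups alone. The regulators came to 2 with no filter on low counts and 2 with a replicate block, and the thyroid list to 1 by DESeq2. Beyond the settings' own construction, the cause was not tested.

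For 61 results of named genes, 1358 of 1516 alternatives kept the call, 158 lost it and 0 reversed. Replicate numbers did not pair the samples in all groups: 8 of 24 same-numbered pairs correlated over 0.1 (range -0.243 to 0.662) and 10 matched their own number best. These include all 4 pairs of CD fast with CD fed (r 0.052 to 0.112) and HFD fast 4 with HFD fed 4 (r = 0.662). The pairs of HFD fast with HFD fed had r of 0.058 to 0.662. Whether the numbers pair fed and fasted livers of the same diet is not settled. With a replicate block, fasting called 3948 genes on CD and 1440 on HFD, HFD called 1207 in fed and 1290 in fasted mice, and the interaction called 359. Depth limits Chrna4 in fasted livers, with 0 to 8 reads in a library.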
